A study of Homo sapiens with 12 samples.

Results

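The genes described here are 9 components and inhibitors of the JAK-STAT pathway. They are the signal transducers STAT2, STAT3 and STAT6, the kinases JAK1, JAK2 and TYK2, and the inhibitors SOCS1, SOCS3 and PIAS1. They were taken by symbol from a table of 63086 genes, and all 9 were found and passed the filter on low values that left 15987 genes for testing. The rule that names them uses no measured value, but the members were chosen with earlier results of these data known.

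In this pathway a cytokine brings receptor chains together, JAK kinases bound to those chains phosphorylate them, and STAT proteins dock there, are phosphorylated in turn and enter the nucleus as dimers. STAT2 joins IRF9 in ISGF3, the factor that drives interferon-stimulated genes, while STAT3 mainly serves the IL-6 family and STAT6 serves IL-4 and IL-13. SOCS proteins are induced by the pathway and bind the kinases or receptors to shut it down, and PIAS proteins act on STATs in the nucleus.

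RNA was sequenced from MIA PaCa-2, an established line of human pancreatic carcinoma cells, grown without any added agent in RPMI 1640 with serum. WT was the unmodified line, CRISPR Control had been through editing and carried a silent point mutation, and TIMP1 KO 1 and TIMP1 KO 2 (KO 1 and KO 2 below) carried edits of exon 4 of TIMP1, made with 2 guides to different regions of that exon. TIMP1 encodes a secreted inhibitor of metalloproteinases. Each line had 3 libraries named as biological replicates. Following the study, KO 1 and KO 2 are called TIMP-1-deficient and WT and CRISPR Control TIMP-1-competent. The KO lines are clones, and every edited genotype is present as a single line, so an effect of the edit and any other difference of that line cannot be told apart. The p-values measure only the spread between libraries of the same line.

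The libraries held 26908701 to 36093563 reads in genes. The values are normalised counts, that is reads divided by a factor per library that sets the typical gene equal. The WT libraries had 3837, 3290.2 and 3532 normalised counts of TIMP1 and the CRISPR Control libraries 2285, 2826 and 2959. The KO 1 libraries had 1562, 1624 and 1613 and the KO 2 libraries 1136, 1192 and 1155, so its RNA was lower but present in the deficient lines. It was also lower in CRISPR Control than in WT (log2 fold change -0.41, limma adjusted p = 0.000769). Of the marker genes listed for this line, VIM, KRT8 and KRT18 had at least 14596 normalised counts in every library, whereas KRT7 had at most 217. EPCAM ran from 1199 to 2226 over the libraries and CDH1 from 68.6 to 1486.5, so CDH1 was not uniform. The summed level of 10 markers of leukocytes, endothelium, acinar cells and hepatocytes ran from 51.8 to 62.9 normalised counts for WT, from 55.7 to 64.8 for CRISPR Control, from 76.9 to 97.2 for KO 1 and from 179.8 to 193.7 for KO 2. Most of it was CD14, and CD3E, CPA1 and ALB reached at most 2 reads in any library. The part of these markers in the results was not tested. In bulk RNA, fewer cells of a type and less RNA per cell cannot be told apart.

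The first question was which of the 9 genes differed between the deficient and the competent lines. Limma on log2(normalised count + 1) called 6 of the 9 higher and 2 lower in the mean of the deficient lines, at an adjusted p under 0.05. Over all genes tested, 32.9% were higher and 33.0% lower by the same rule. The members' median log2 fold change was 0.39, beside 0.00 over all genes. STAT2 and STAT6 rose most. STAT3, JAK2, TYK2 and SOCS3 were also higher, JAK1 and PIAS1 were lower, and SOCS1 did not pass. For 2 of the 9, STAT2 and STAT6, all 6 deficient libraries lay above all 6 competent ones, as 24.7% of all genes lay on 1 side or the other.

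Comparisons with WT alone gave a different count for each line. In KO 1 against WT, 4 of the 9 were higher and none was lower, where 18.0% and 17.5% of all genes were called. The 4 were STAT2, STAT3, STAT6 and SOCS3. In KO 2 against WT, 4 were higher and 3 lower, where 27.1% and 27.9% of all genes were called. Here STAT2, STAT6, JAK2 and SOCS3 were higher, and STAT3, JAK1 and PIAS1 were lower. CRISPR Control, which is TIMP-1-competent, differed from WT in 8 of the 9 genes, with 2 higher and 6 lower, where 27.2% and 26.3% of all genes were called. Its median log2 fold change over the 9 genes was -0.60, beside 0.01 over all genes.

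**Figure D1:**
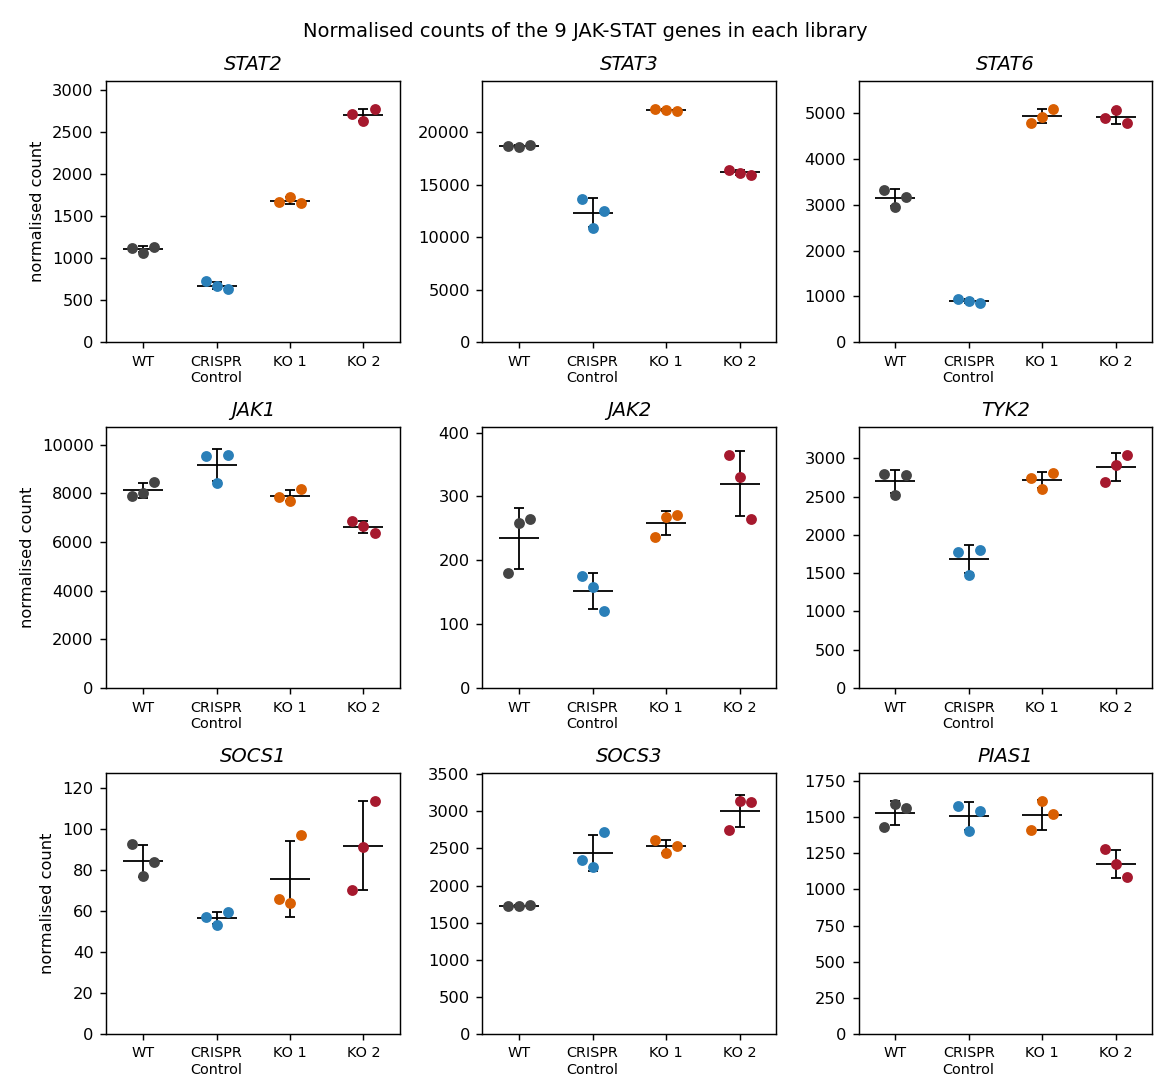
Normalised count of each gene (vertical axis, linear from 0) in the 3 libraries of each line (points), with the mean (long bar) and SD (error bar). CRISPR Control has the lowest mean for 6 of the 9 genes, and only STAT2 and STAT6 have all 6 KO points above all WT and CRISPR Control points.

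CRISPR Control had the lowest mean of the 4 lines for STAT2, STAT3, STAT6, JAK2, TYK2 and SOCS1. Against CRISPR Control, KO 1 had 5 of the 9 genes higher and 1 lower, where 31.7% and 31.3% of all genes were called. KO 2 had 7 higher and 2 lower, where 33.3% and 34.4% of all genes were called. Both comparisons share the CRISPR Control libraries, and those with WT share the WT libraries, so their counts are not independent of each other.

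**Figure D2:**
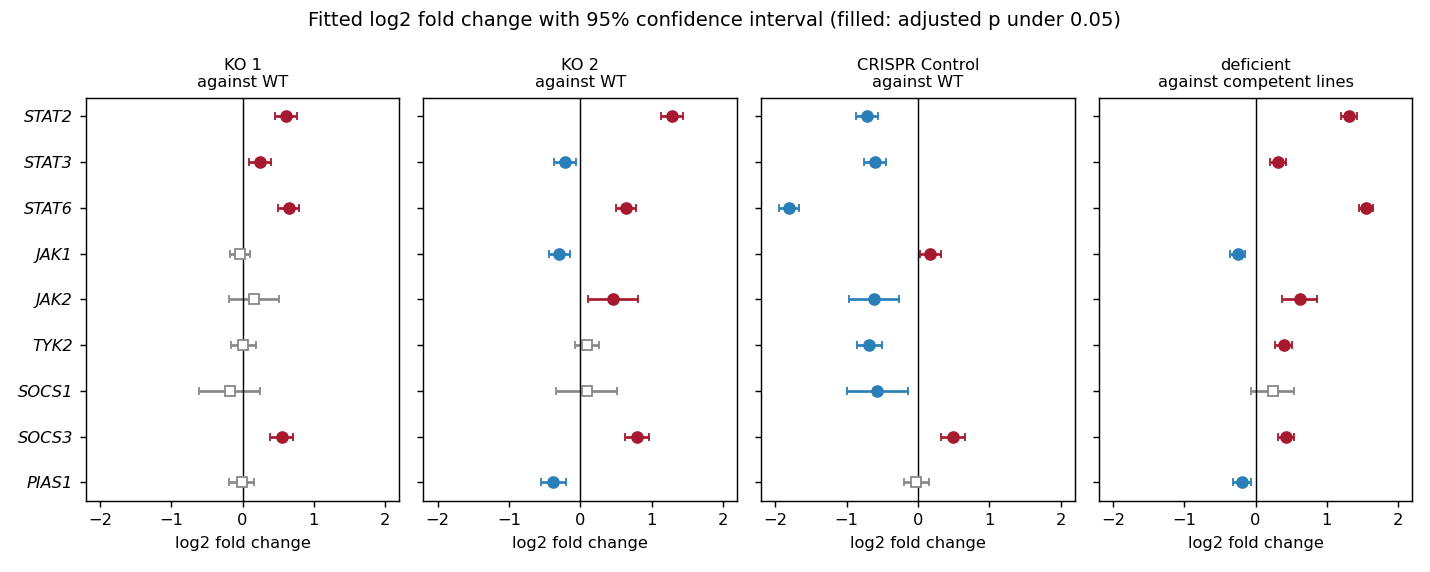
Limma log2 fold change of each gene (horizontal axis) with its 95% confidence interval in 4 comparisons. Filled points passed an adjusted p under 0.05, red for higher and blue for lower, and open squares did not. STAT2 and STAT6 are right of 0 in both KO lines and left of 0 in CRISPR Control, where STAT6 reaches -1.81.

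STAT2, the transducer particular to type I and type III interferon receptors, lies at chr12:56341597-56360203 on the minus strand (GRCh38). WT libraries had 1122, 1065 and 1127 normalised counts and CRISPR Control libraries 723, 665 and 633. STAT2 stood at 1670.2, 1729 and 1656 in KO 1 and at 2710.4, 2629.5 and 2776 in KO 2. No 2 lines overlapped, and the order from low to high was CRISPR Control, WT, KO 1 and KO 2. STAT2 was 1.53-fold higher in KO 1 than in WT (log2 fold change 0.61 ± 0.073, SE, adjusted p = 2.64e-06) and 2.45-fold higher in KO 2 (1.29 ± 0.073, adjusted p = 4.1e-11). It was 1.64-fold lower in CRISPR Control than in WT (-0.71 ± 0.073, adjusted p = 1.62e-07). KO 2 also exceeded KO 1, by 0.68 ± 0.073 on the log2 scale (adjusted p = 6.13e-07). Every pair of neighbours in the order therefore differed by more than the spread between libraries.

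STAT6, the transducer of IL-4 and IL-13, lies on the same chromosome at chr12:57095408-57132139, minus strand. The WT libraries had 3323, 2955 and 3173 normalised counts and those of CRISPR Control 941, 904 and 852. KO 1 had 4798, 4911 and 5093, and KO 2 had 4887, 5081 and 4781. Both KO lines were above WT in every library and overlapped each other, while CRISPR Control stood far below. The rise over WT was 1.57-fold in KO 1 (0.65 ± 0.069, adjusted p = 5.88e-07) and 1.56-fold in KO 2 (0.64 ± 0.069, adjusted p = 2.72e-07). KO 2 and KO 1 were not told apart, with a log2 difference of -0.01 and a 95% confidence interval of -0.15 to 0.14. In CRISPR Control STAT6 was 3.5-fold lower than in WT (-1.81 ± 0.069, adjusted p = 1.09e-13). The difference between deficient and competent lines was 1.55 ± 0.049, and it averages the values against both competent lines. STAT6 shares 69 exon bases with NAB2 and 59 with LRP1 on the opposite strand, and the strand setting of the counting is not stated.

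STAT2 and STAT6 are the only members whose deficient and competent libraries separated, so the 100 bases before their RefSeq start sites are shown. The windows of 300 bases around the starts of the 9 genes (250 before and 50 after, 16 windows because some genes have several starts) were searched on both strands for the STAT3 site TTCNNNGAA, the wider form TTCNNNNGAA that STAT6 prefers, and the core TTTCNNTTTC of the interferon-stimulated response element bound by ISGF3. Both stretches are on the minus strand of chromosome 12 in GRCh38.p14, at chr12:56360108-56360207 for STAT2 and chr12:57110290-57110389 for STAT6. The STAT6 window lies inside the gene span given above, so any start farther upstream was not covered. Neither window held any of the 3 motifs, so no letter is in capitals.
STAT2: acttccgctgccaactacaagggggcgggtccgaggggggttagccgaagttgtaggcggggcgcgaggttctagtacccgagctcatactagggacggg
STAT6: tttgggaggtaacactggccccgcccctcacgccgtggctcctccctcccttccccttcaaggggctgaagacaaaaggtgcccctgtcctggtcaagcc
Among all 35116 promoter windows of the table, 7.66% held the first motif, 6.44% the second and 3.57% the third.

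STAT3, which carries signals of the IL-6 family, lies at chr17:42313324-42388540, minus strand. WT libraries gave 18642, 18618 and 18815 normalised counts, and CRISPR Control gave 13619.5, 10900.1 and 12507. In KO 1 the values were 22205, 22089.7 and 22014, and in KO 2 they were 16369, 16154 and 15953. The 4 lines did not overlap, and WT stood between the KO lines. STAT3 was 1.18-fold higher in KO 1 than in WT (0.24 ± 0.073, adjusted p = 0.0146) and 1.16-fold lower in KO 2 (-0.21 ± 0.073, adjusted p = 0.0211). The KO 2 difference was no longer called with equal library totals (-0.11, adjusted p = 0.201), with quantile normalisation (-0.08, adjusted p = 0.336), or without WT replicate 3 (adjusted p = 0.0613), KO 2 replicate 2 (0.0539) or KO 2 replicate 3 (0.0566). KO 2 was below KO 1 by 0.45 ± 0.073 (adjusted p = 7.71e-05). The mean was higher in the deficient lines (0.32 ± 0.052, adjusted p = 2.59e-05), with CRISPR Control 1.52-fold below WT (-0.60 ± 0.073, adjusted p = 1.42e-06).

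The kinases differed less between deficient and competent lines than STAT2 and STAT6 did. JAK1, which pairs with most cytokine receptor chains, lies at chr1:64833223-65067754, minus strand. The levels of WT were 7881, 8019 and 8468 normalised counts and those of CRISPR Control 9541, 8427 and 9585. KO 1 had 7859, 7696 and 8175, and KO 2 had 6869.6, 6643 and 6385. KO 2 lay below all other libraries, and the WT values overlapped those of CRISPR Control and KO 1. JAK1 fell in KO 2, to 1.22-fold below WT (-0.29 ± 0.068, adjusted p = 0.00134) and 1.19-fold below KO 1 (-0.25 ± 0.068, adjusted p = 0.00627). With quantile normalisation neither was called (-0.15 in each, adjusted p = 0.0664 and 0.0907). KO 1 differed from WT by -0.04 (95% confidence interval -0.18 to 0.11). The call of CRISPR Control above WT (0.18 ± 0.068, adjusted p = 0.0376) was lost when WT replicate 1 or 2, CRISPR Control replicate 1 or 3, KO 1 replicate 1 or 2 or KO 2 replicate 2 was left out, with adjusted p up to 0.114, and in edgeR (adjusted p = 0.0655).

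TYK2, the kinase of the type I interferon, IL-10 and IL-12 receptors, lies at chr19:10350533-10380608, minus strand. WT libraries had 2798, 2527 and 2781 normalised counts, CRISPR Control 1781, 1481 and 1800.0, KO 1 2751, 2597 and 2804, and KO 2 2689.7, 2921 and 3048. CRISPR Control lay below every other library, and the other 3 lines overlapped. TYK2 was 1.61-fold lower in CRISPR Control than in WT (-0.68 ± 0.083, adjusted p = 1.45e-06). KO 1 differed from WT by 0.01 (95% confidence interval -0.17 to 0.18) and KO 2 by 0.09 (-0.08 to 0.27), and neither passed. The call between deficient and competent lines (0.39 ± 0.059, adjusted p = 9.3e-06) therefore came with no called difference of either KO line from WT.

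JAK2, the kinase of the interferon gamma, erythropoietin and IL-6 type receptors, lies at chr9:4984390-5129948 on the plus strand and had the lowest level per kilobase of the 9 genes. The libraries had 180.0, 258 and 265 normalised counts for WT, 175, 159 and 121 for CRISPR Control, 237, 268 and 270.3 for KO 1 and 365, 331 and 264 for KO 2, on 110 to 441 reads each. WT replicate 1 was near the CRISPR Control values, and KO 2 replicate 3 was within the range of WT and KO 1. JAK2 was 1.54-fold lower in CRISPR Control than in WT (-0.62 ± 0.167, adjusted p = 0.00442). KO 2 was 1.37-fold above WT (0.46 ± 0.167, adjusted p = 0.0274), a call lost without WT replicate 1 (0.28, adjusted p = 0.181), without KO 2 replicate 1 (0.36, 0.121) or replicate 2 (0.43, 0.0806). KO 1 and WT differed by 0.16 (95% confidence interval -0.19 to 0.51). The difference between deficient and competent lines was 0.62 ± 0.118 (adjusted p = 0.000151).

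Of the inhibitors, SOCS3, which binds JAKs and the IL-6 receptor chain gp130, showed the clearest differences. It lies at chr17:78356778-78360077, minus strand. WT had 1722, 1720.1 and 1739 normalised counts, CRISPR Control 2347, 2255 and 2719, KO 1 2610.1, 2442 and 2532, and KO 2 2753, 3146 and 3123. WT was below all 9 edited libraries, CRISPR Control and KO 1 overlapped, and KO 2 was highest. SOCS3 was 1.46-fold higher than WT in KO 1 (0.55 ± 0.079, adjusted p = 2.28e-05), 1.74-fold in KO 2 (0.80 ± 0.079, adjusted p = 9.04e-08) and 1.41-fold in CRISPR Control (0.49 ± 0.079, adjusted p = 3.78e-05). KO 1 and CRISPR Control were not told apart (0.06, 95% confidence interval -0.11 to 0.22). KO 2 exceeded KO 1 by 0.25 ± 0.079 (adjusted p = 0.0181), which was not called without KO 1 replicate 2 (0.22, adjusted p = 0.0746), KO 2 replicate 2 (0.21, 0.0856) or KO 2 replicate 3 (0.22, 0.0686).

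SOCS1, the inhibitor that blocks the JAK kinase domain and limits interferon signalling, lies at chr16:11254417-11256204, minus strand, and had few reads (45 to 113 a library). The WT values were 92.8, 77.3 and 83.8 normalised counts and those of CRISPR Control 57.0, 53.4 and 59.3. KO 1 had 65.9, 64.1 and 97.2, and KO 2 had 70.4, 91.2 and 114. CRISPR Control lay below all other libraries, and the other lines overlapped with a wide spread. The difference between deficient and competent lines was 0.24 with a 95% confidence interval of -0.06 to 0.54 (adjusted p = 0.147). Against WT, KO 1 differed by -0.18 (-0.61 to 0.25) and KO 2 by 0.09 (-0.33 to 0.52), so both intervals include 0 and changes in either direction. SOCS1 was lower in CRISPR Control than in WT (-0.57 ± 0.203, adjusted p = 0.0243), but not called without WT replicate 1 (adjusted p = 0.0852), WT replicate 3 (0.0549) or CRISPR Control replicate 2 (0.0635). KO 2 exceeded CRISPR Control by 0.66 ± 0.203 (adjusted p = 0.00744), which was not called without KO 2 replicate 3 (0.50, adjusted p = 0.0545).

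SOCS1 was the only member with a motif match in the windows searched. The match was the core of the interferon-stimulated response element, on the opposite strand to the gene, beginning 113 bases before the RefSeq start. The stretch is chr16:11256288-11256337 of GRCh38.p14, minus strand, and capitals mark the match.
SOCS1: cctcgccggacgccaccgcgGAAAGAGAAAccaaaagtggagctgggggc
A match is a description of the letters only, and 3.57% of all windows had one. For SOCS3 the windows were chr17:78360876-78361175 and chr17:78359618-78359917. Neither holds the upstream end of its gene span at 78360077, so a start there was not covered.

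PIAS1, a SUMO ligase that acts on STAT proteins, lies at chr15:68054309-68198603 on the plus strand. WT had 1434, 1594 and 1564 normalised counts and CRISPR Control had 1582, 1402 and 1542. In KO 1 the libraries held 1409.9, 1616 and 1524, and in KO 2 they held 1277, 1176 and 1085. KO 2 lay below all other libraries, which overlapped among themselves. PIAS1 was 1.3-fold lower in KO 2 than in WT (-0.38 ± 0.084, adjusted p = 0.000903) and 1.29-fold lower than in KO 1 (-0.36 ± 0.084, adjusted p = 0.00206). KO 1 and CRISPR Control differed from WT by -0.01 and -0.02, with 95% confidence intervals of -0.19 to 0.16 and -0.20 to 0.16. The gene shares 3261 exon bases with CALML4 on the opposite strand, which had a mean of 1.97 normalised counts.

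KO 2 and KO 1 were compared directly. Of the 9 genes, 2 were higher in KO 2 (STAT2 and SOCS3) and 3 lower (STAT3, JAK1 and PIAS1), where 18.1% of all genes were higher and 20.1% lower. STAT6, JAK2, TYK2 and SOCS1 did not pass in that comparison.

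The span of the line means gives the order in which the genes varied. On the log2 scale STAT6 spanned 2.46, STAT2 2.01, JAK2 1.08, STAT3 0.85, SOCS3 0.80, TYK2 0.78, SOCS1 0.66, JAK1 0.47 and PIAS1 0.38. Kinases and PIAS1 were thus among the narrower, apart from JAK2, whose libraries also varied most among the kinases.

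Levels per kilobase of the canonical transcript allow the genes to be compared with each other. In WT, STAT3 was highest at 3798 normalised counts per kilobase, followed by JAK1 at 1595, STAT6 at 795, TYK2 at 637 and SOCS3 at 632. STAT2 had 251, PIAS1 192, SOCS1 68.4 and JAK2 33.4. In KO 2, STAT2 reached 614 and SOCS3 1099.9, while STAT3 was still highest among members at 3284. With the length of all annotated exons instead, SOCS3 moved from the fifth place to the second place in WT and PIAS1 came above STAT2, while STAT3 stayed at the top and SOCS1 and JAK2 at the bottom under both lengths.

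JAK1 held most of the summed JAK level per kilobase in every line, at 69.9% for WT, 80.3% for CRISPR Control, 68.1% for KO 1 and 62.5% for KO 2. TYK2 held 27.9%, 17.7%, 28.1% and 32.6% in the same order. JAK2 and JAK3 together made up the small remainder, with JAK2 between 0.968% and 2.18%.

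**Figure D3:**
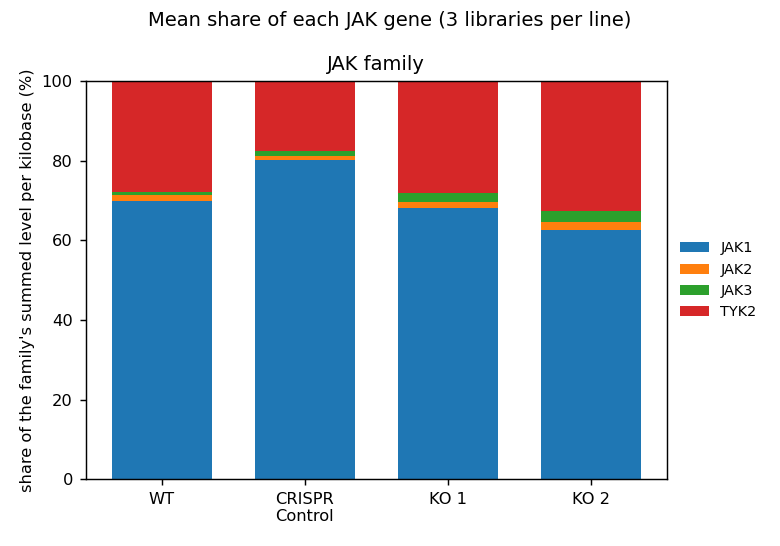
Stacked bars give the mean share (percent, 3 libraries a line) of each gene in the summed level per kilobase of the JAK family. JAK1 ranges from 62.5% in KO 2 to 80.3% in CRISPR Control, and TYK2 holds most of the rest.

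The genes that lie near each member were examined next. Around STAT3, the 63 tested genes that start within 1 Mb had a median log2 fold change of -0.33 in CRISPR Control against WT. Of these, 31 were called lower and 10 higher, where 26.3% and 27.2% of all genes were. In deficient against competent lines their median was 0.27, beside 0.32 for STAT3. STAT5A and STAT5B, named after their values were seen, are next to STAT3 on chromosome 17. STAT5A was lower in CRISPR Control than in WT (-0.71 ± 0.08, adjusted p = 3.17e-07), and so was STAT5B (-0.63 ± 0.07, adjusted p = 4.06e-07). In KO 2 against WT, where STAT3 and STAT5B (-0.25 ± 0.07, adjusted p = 0.00468) were lower, STAT5A was higher (0.24 ± 0.08, adjusted p = 0.0139).

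Other regions differed from this. Around SOCS3, 20 genes had a median of 0.36 in CRISPR Control against WT, beside 0.49 for SOCS3, but -0.02 in KO 2 against WT, beside 0.80. Around PIAS1, 12 genes had a median of -0.32 in KO 2 against WT, beside -0.38 for PIAS1. In CRISPR Control against WT the same genes had a median of 0.23, beside -0.02 for PIAS1, and in KO 1 against WT -0.17, beside -0.01. Around STAT2 and STAT6 the medians in these comparisons lay between -0.04 and 0.06 over 60 and 63 genes, far from the values of the genes themselves. JAK1 had 7 tested neighbours and JAK2 8, too few to describe a region. The part of the regions in the members' values was not tested.

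**Figure D4:**
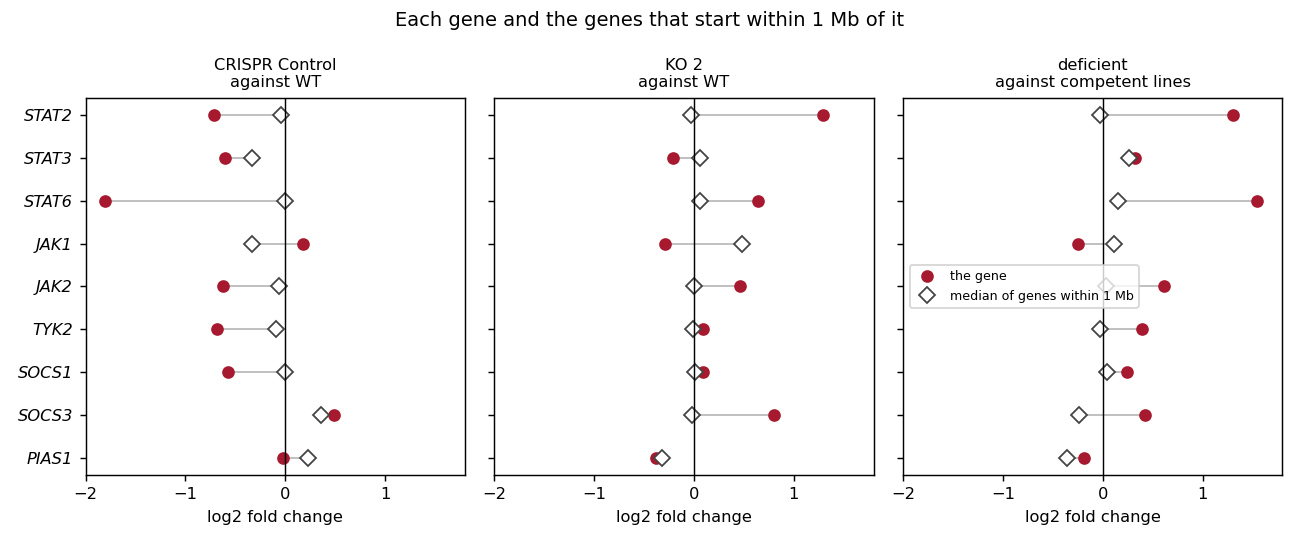
Log2 fold change of each gene (red points) and the median of the tested genes that start within 1 Mb of it (open diamonds) in 3 comparisons. For STAT2 and STAT6 the diamonds lie between -0.04 and 0.16 and the points far from them, whereas for PIAS1 in KO 2 and SOCS3 in CRISPR Control point and diamond lie close together.

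For the 3 members with the widest span, the genes most like them in pattern were found by Pearson's correlation of log2 values over the 12 libraries, among 11634 genes with a mean of at least 100. These are descriptions, since the 12 libraries come from 4 lines and the correlation mostly reflects the order of the line means. Closest to STAT6 were MLPH (r = 0.998), CAMK1D (0.996) and GJB2 (0.995), which encode a melanosome transport protein, a calcium-dependent kinase and a gap junction protein. Closest to STAT2 were ARHGEF6 (0.997), a guanine nucleotide exchange factor, LIMA1 (0.994), an actin-binding protein, and ACSS1 (0.994), a mitochondrial acetyl-CoA synthetase. Closest to JAK2 were NUPL2 (0.974), a nucleoporin-like protein, ZNF774 (0.971), a zinc finger protein, and RAB2B (0.966), a small GTPase. None of these 9 is on the pathway lists. MLPH had a wider span than STAT6, with log2 fold changes against WT of 1.41 in KO 1, 1.16 in KO 2 and -3.26 in CRISPR Control.

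Lists of the rest of the pathway place the 9 genes in their setting. Of 148 other pathway genes, 97 passed the filter on low values, and 57 of these were higher and 18 lower in the deficient lines, where 32.9% and 33.0% of all genes were called. Of the 57, 9 averaged under 10 normalised counts in the competent lines, and of the 18, 3 did so in the deficient lines, so these passed the filter only through the lines where they are high. Among the 84 with at least 10 on both sides, 48 were higher and 15 lower. Of the 97, 41 were higher and 11 lower in KO 1 against WT, where 18.0% and 17.5% of all genes were called. In KO 2 against WT 56 were higher and 11 lower (27.1% and 27.9% of all genes). In CRISPR Control against WT 30 were higher and 31 lower (27.2% and 26.3%). These counts still hold genes such as IFNL1 (WT mean 0.75), which passed the filter only through lines where they are high.

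**Figure D5:**
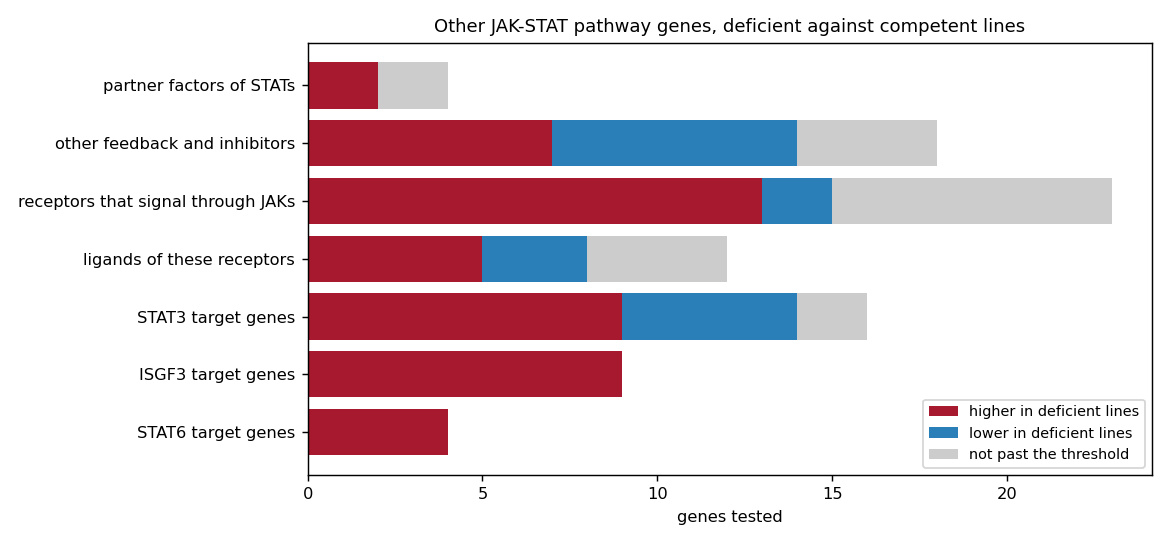
Number of tested genes (horizontal axis) of each pathway list that were higher, lower or not past an adjusted p under 0.05 in the deficient against the competent lines. The 9 tested ISGF3 target genes are higher, 1 of them (RSAD2) having passed the filter only through the deficient lines. The feedback list is split evenly, 7 higher and 7 lower of 18, with CISH having passed only through the competent lines. Of all genes tested, 32.9% were higher and 33.0% lower.

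Other transducers and kinases of the pathway were measured as well. JAK3, the kinase of receptors with the common gamma chain, had means of 98.4 ± 10.9 (SD, n = 3) for WT, 129 ± 4.7 for CRISPR Control, 279.9 ± 15.2 for KO 1 and 300.2 ± 34.1 for KO 2, and was higher in the deficient lines by 1.35 ± 0.09 (adjusted p = 2.2e-10). STAT4, which serves IL-12, averaged under 10 normalised counts in the deficient lines and passed the filter only through the competent ones. Its lower value in the deficient lines (-2.34 ± 0.35, adjusted p = 8.63e-06) therefore had a direction that was built in. STAT4 had 0 or 1 read in each KO 1 library against 7 to 20 reads in WT and 6 to 16 in KO 2. CRISPR Control, with 21 to 35 reads, was its highest line. KO 2 was not told apart from WT for STAT4 (-0.53, adjusted p = 0.378).

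The partners of the STATs included IRF9, the DNA-binding part of ISGF3. WT libraries had 30.6, 19.1 and 27.6 normalised counts of IRF9, and CRISPR Control 13.0, 14.2 and 16.5. There were 60.5, 60.8 and 56.5 in KO 1 and 115, 156 and 105 in KO 2. Its libraries followed the order seen for STAT2, and the rise over WT was 1.20 ± 0.23 in KO 1 (adjusted p = 0.000518) and 2.24 ± 0.23 in KO 2 (adjusted p = 1.66e-07). NMI, an interferon-inducible STAT binder, was also higher in the mean of the deficient lines (0.67 ± 0.07, adjusted p = 6.9e-08), but it had a higher mean in CRISPR Control (593) than in KO 1 (487), and KO 1 was called lower than CRISPR Control (-0.28 ± 0.10, adjusted p = 0.0182). The WT mean was 299 and that of KO 2 was 919, and the coactivators EP300 and CREBBP did not pass.

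Of 10 listed targets of ISGF3, 9 passed the filter. These 9 were called higher in KO 1 against WT (18.0% of all genes were), in KO 2 against WT (27.1%) and in KO 2 against KO 1 (18.1%). RSAD2 and CMPK2, with means of 2.8 and 8.1 normalised counts in WT, passed the filter only through lines where they were higher, so their direction against WT was built in. In CRISPR Control against WT 4 of the 9 were higher and 3 lower, where 27.2% and 26.3% of all genes were called. MX1, an antiviral GTPase, had mean normalised counts of 54.6 ± 2.2 for WT, 81.4 ± 15.9 for CRISPR Control, 875 ± 277.5 for KO 1 and 10129 ± 300.02 for KO 2. IFI6, a mitochondrial interferon-stimulated protein, had 131 ± 16.0, 193 ± 10.6, 2276 ± 508.6 and 20683 ± 3292 in the same order. The differences between deficient and competent lines were 5.45 ± 0.11 for MX1 (adjusted p = 9.47e-18) and 5.41 ± 0.10 for IFI6 (adjusted p = 1.6e-18). STAT2 itself differed by 1.31 ± 0.052 in that comparison.

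STAT6 targets were few in these cells, with 4 of 8 passing the filter. These 4 were called higher in the deficient lines, where 32.9% of all genes were, but CCL26 passed the filter only through the lines where it is high, so its direction was built in. Against WT, 1 of the 4 was called higher in KO 1 (18.0% of all genes were) and 3 in KO 2 (27.1%). The 1 in KO 1 was CCL26, which is also among the 3 in KO 2. CCL26, the chemokine eotaxin-3, had 0 to 6 reads in every competent library, 43.2, 50.6 and 45.9 normalised counts in KO 1 and 116, 129.8 and 122 in KO 2. ALOX15, a lipoxygenase, was higher in KO 2 than in WT (2.73 ± 0.37, adjusted p = 4.78e-06) and did not pass in KO 1 (0.74 ± 0.37, adjusted p = 0.131). ALOX15 was also higher in KO 2 than in KO 1 (1.99 ± 0.37, adjusted p = 0.0003), and STAT6 itself did not differ detectably between these lines. The part of STAT6 in the values of its targets was not tested.

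STAT3 targets were mixed, with 9 of 16 higher and 5 lower in the deficient lines, where 32.9% and 33.0% of all genes were called. LRG1 passed the filter only through the deficient lines, and of the other 15 targets 8 were higher and 5 lower. FOS, an AP-1 subunit, was higher (1.40 ± 0.20, adjusted p = 6.12e-06) and had its lowest values in CRISPR Control, at 25.0, 13.0 and 26.4 normalised counts. PIM1, a survival kinase, was lower (-1.36 ± 0.05, adjusted p = 4.36e-14), with 1202 ± 41.3 normalised counts for KO 1 and 826 ± 24.8 for KO 2, against 1883 ± 49.2 for WT and 3490.3 ± 261.9 for CRISPR Control. PIM1 was highest in CRISPR Control, the line with the lowest STAT3, and lowest in KO 2, while STAT3 was highest in KO 1. The part of STAT3 in the values of its targets was not tested.

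The remaining feedback genes were split, with 7 of 18 higher and 7 lower, where 32.9% and 33.0% of all genes were called. USP18, which restrains the type I interferon receptor, had 114, 111 and 111 normalised counts for WT, 209.9, 254 and 249.5 for CRISPR Control, 381, 349 and 345 for KO 1 and 1505, 1612 and 1740.4 for KO 2. It was higher in the deficient lines by 2.22 ± 0.07 (adjusted p = 6.51e-15). CISH, a SOCS protein induced by STAT5, was lower (-1.20 ± 0.27, adjusted p = 0.000785) on 6 to 41 reads a library. CISH averaged under 10 normalised counts in the deficient lines and passed the filter only through the competent ones, so its direction was built in.

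Of the receptors, 13 of 23 tested were higher and 2 lower in the deficient lines, where 32.9% and 33.0% of all genes were called. The other 16 of the 39 listed failed the filter. IL15RA, the IL-15 receptor chain, had means of 55.7 ± 3.9 for WT, 13.8 ± 1.4 for CRISPR Control, 109 ± 6.8 for KO 1 and 249.5 ± 17.1 for KO 2 (2.52 ± 0.12, adjusted p = 9.79e-13). IL12RB1, a chain of the IL-12 and IL-23 receptors, had 0 to 3 reads in competent libraries, 8 to 11 in KO 1 and 28 to 43 in KO 2. IL12RB1 passed the filter only through the deficient lines, so its direction was built in. Of the other 22 receptors, 12 were higher and 2 lower.

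Ligands were sparse, and only 12 of 38 passed the filter. Of the 12, 5 were higher and 3 lower, where 32.9% and 33.0% of all genes were called. Among these, IFNL1, IFNL2 and IFNL3 averaged under 10 normalised counts in the competent lines and passed only through the deficient ones, and THPO the other way round, so their directions were built in. Of the other 8 ligands, 2 were higher and 2 lower. IFNL1, a type III interferon, had 0 to 6 reads in competent libraries, 6 to 15 in KO 1 and 129 to 183 in KO 2. IFNL3 had no read in the 3 WT libraries, 0 to 5 with CRISPR Control, 2 to 5 with KO 1 and 76 to 128 with KO 2. IFNL3 has a near-identical neighbour, IFNL2, so its reads may be shared between them.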

How the data were processed

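RNA of 12 MIA PaCa-2 libraries (4 lines with 3 biological replicates each, grouped by their titles) had been sequenced. The authors trimmed reads with Cutadapt, aligned them to GRCh38 with STAR, counted them with featureCounts and scaled them in DESeq2. The strand setting and annotation release are not given in the sources used here. The deposited values are a signal, counts divided by a size factor per library. Dividing by the smallest step returned whole reads for 100.0% of positive values in each library (tolerance 0.01 reads), from 26908701 to 36093563 reads a library. Depth bears on counting error only, since PCR copies were not told from separate molecules. One unnamed line of the table was left out, and 4 columns of the authors' means were not used.

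Those 15987 genes whose normalised counts averaged 10 or more were tested in limma 3.58.1 (R 4.3.3) on log2(normalised count + 1), a scale that understates changes of low genes, with 1 model over all 12 libraries, trended eBayes and Benjamini-Hochberg adjustment over all genes tested (two-sided, threshold 0.05). The deficient lines were compared as the mean of KO 1 and KO 2 with that of WT and CRISPR Control. The script was tested on simulated data. Alternatives were other pseudocounts, filters and scalings, edgeR 4.0.16 and DESeq2 1.42.0 on the recovered reads, a replicate block and leaving out each library.

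Named were all 9 members, TIMP1, the 2 genes of each pathway list with the largest called change between deficient and competent lines, and the 3 genes most correlated with each of the 3 members of widest span. The members and lists were chosen with earlier results of these data known. Positions and transcript lengths are from GENCODE 44 and promoter windows from RefSeq (GRCh38.p14), which matched all 9 members. Of the gene identifiers, 99.1% matched a gene name. Results of a few other pathway genes are not reported here.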

Additional observations from a re-analysis of the deposited data

Results flagged for a closer look

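The difference between KO 2 and KO 1, the lines edited in the same exon, was itself past the threshold in limma for 5 of the 9 genes. STAT2 was higher in KO 2 by 0.68 on the log2 scale and SOCS3 by 0.25. The log2 difference was -0.45 for STAT3, -0.36 for PIAS1 and -0.25 for JAK1. Since each KO line is a single clone, the guide and the clone cannot be told apart.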

How the results depend on the processing

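Each of the 63 log2 fold changes of the 9 genes was recomputed under 25 alternatives, giving 1575 values. Of these, 1488 kept their direction and side of the threshold, 22 were uncalled values of 8 results that took the other sign and stayed uncalled, 64 kept the direction but were no longer called, 1 was newly called (TYK2 in KO 2 against WT with quantile normalisation, adjusted p = 0.0488), and no called value changed sign. Requiring an absolute log2 fold change of at least 0.5 left 3 called genes in KO 1 against WT (17.6% of all genes were called), 3 in KO 2 against WT (33.0%), 6 in CRISPR Control against WT (31.0%), 5 in KO 1 against CRISPR Control (41.1%), 5 in KO 2 against CRISPR Control (47.7%), 1 in KO 2 against KO 1 (19.2%) and 3 in deficient against competent lines (34.1%). With no filter on low values, the fit and the adjustment covered 63086 genes, and 5 were called in CRISPR Control against WT. STAT3 in both KO lines against WT and JAK2 in KO 2 and CRISPR Control against WT then lost their calls. So did SOCS1 in CRISPR Control against WT and KO 2 against CRISPR Control, and JAK1 in CRISPR Control against WT. SOCS3 in KO 2 against KO 1 and PIAS1 in deficient against competent lines also lost theirs. Leaving out 1 library at a time gave 4 called genes each time in KO 1 against WT, 5 to 7 in KO 2 against WT, 6 to 8 in CRISPR Control against WT, 6 each time in KO 1 against CRISPR Control, 8 to 9 in KO 2 against CRISPR Control, 4 to 5 in KO 2 against KO 1 and 8 each time in deficient against competent lines. The genes with separated libraries were 2 to 3 (SOCS3 joined without CRISPR Control replicate 3, and JAK1, lower in the deficient lines, without KO 1 replicate 3), and the other pathway genes called were 72 to 77. The replicate numbers did not pair the libraries: same-numbered libraries correlated in their deviations from the line means between -0.13 and 0.16 over 18 pairs, and different numbers between -0.19 and 0.13. With the replicate block the counts stayed at 4, 7, 8, 6, 9, 5 and 8 called genes in the same order, and at 75 other pathway genes. Equal library totals moved the median of all genes in KO 2 against CRISPR Control to 0.11 and the share of higher calls in KO 2 against WT from 49.3% to 60.0%, and that in KO 2 against KO 1 from 47.4% to 65.6%. PIAS1 in deficient against competent lines (-0.19, adjusted p = 0.0105) was then not called (-0.13, adjusted p = 0.0729), nor was JAK1 in KO 2 against KO 1 (-0.15, adjusted p = 0.0946). With quantile normalisation JAK2 in KO 2 against WT (0.26, adjusted p = 0.180) and SOCS1 in KO 2 against CRISPR Control (0.40, adjusted p = 0.0794) were not called. The lowest members, SOCS1 and JAK2, are limited most by depth.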
